A study of Homo sapiens with 24 samples.

Results

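The short arm of human chromosome 19 was described here through the binding sites of Rbap46 and the sites of changed histone acetylation that fall on it. The stretch comprises all positions before 19700000 in the hg19 build, ahead of a large zinc-finger gene cluster of that chromosome, and spans 19.7 Mb. Below, the arm means this stretch only. Positions of the short arm past the limit count with the rest of chromosome 19. A site belonged to it when its start lay before that limit, which uses no measured value. It held 993 of the 30475 Rbap46 sites (3.26%) and 61 of the 2191 H3K9ac sites (2.78%) listed in the authors' deposited tables.

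The libraries are given as chromatin immunoprecipitation followed by sequencing in hTert-HME1 cells. These are telomerase-immortalised epithelial cells of the human breast grown in mammary epithelial growth medium. Whether the same cells stand behind both the Rbap46 and the H3K9ac values was not tested. Rbap46 (2 libraries) was compared with input chromatin (2 libraries), both from cells with no treatment given in the labels. H3K9ac was compared between shHAT1 cells (3 libraries), which carry a short hairpin RNA against HAT1, and shControl cells (3 libraries), which carry a control hairpin. The library names give each hairpin library a suffix of its own, but the labels do not say whether these are separate clones or cultures. The other 5 groups of the series, with 14 libraries, were not analysed here.

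HAT1 is a histone acetyltransferase that acetylates newly made histone H4 before it is placed on DNA. Rbap46, also called RBBP7, is a histone-binding chaperone that works in a complex with HAT1 and also sits in other chromatin complexes. Acetylation of histone H3 at lysine 9 (H3K9ac) marks active promoters and other open regulatory DNA. Chromosome 19 is known as the most gene-dense human chromosome.

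All levels below are the authors' group means on a log2 scale of normalized read concentration. Each Rbap46 difference is the Rbap46 level minus the input level, and each H3K9ac difference is the shHAT1 level minus the shControl level. A difference of 1 is a doubling and a difference of -1 a halving. The tables give no value per library, so no spread between replicates, no test of replicates and no depth per library stands behind any comparison here. The only test values are the authors' false discovery rates (FDR) per site, and comparisons between stretches of the genome are descriptions with no test. Both tables list only sites that passed a limit, an FDR of 0.05 for Rbap46 and 0.1 for H3K9ac. Bound or acetylated sites that did not pass were not analysed here.

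A stretch elsewhere had a raised input level. On chromosome 22 from 19 to 24 Mb, the median input level of 184 Rbap46 sites was 7.48, against 5.50 on the rest of that chromosome. The median shControl H3K9ac level in the same stretch was 9.28 over 4 sites, against 9.42 over 41 sites on the rest. Input chromatin and H3K9ac at 4 listed sites are unlike measures, and whether the same cells stand behind both tables was not tested. No such step was present on the arm, where the median input level of the 1-Mb windows stayed between 5.70 and 6.32.

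Rbap46 sites were packed more densely on the arm than across most of the genome. There were 50.4 sites per Mb, and the median distance from one site to the next was 8.76 kb, with quartiles of 2.68 and 22.3 kb. On the rest of chromosome 19, with 1037 sites, the median distance was 12.1 kb, and over all other sites it was 19.7 kb. Close neighbours were a little more frequent, since 133 gaps on the arm (13.4%) were 1 kb or shorter, against 10.6% on the rest of chromosome 19 and 10.4% of all other gaps. The longest stretch of the arm without an Rbap46 site, from 15667165 to 15939527, measured 0.272 Mb.

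Counted in fixed 1-Mb windows, the genome had 2285 windows with at least 1 Rbap46 site, with a median of 9 sites. The 19 whole windows of the arm had a median of 50 sites and ranged from 17 to 106. Of these 19 windows, 15 (78.9%) held at least 31 sites, the 90th percentile of all windows with a site. Among all windows of the genome, 5 of the 20 fullest and 12 of the 100 fullest lay on the arm. The window from 1 to 2 Mb, with 106 sites, held more than any other in the genome. The next were chromosome 19 from 49 to 50 Mb with 90 sites, on the long arm, and 2 neighbouring windows of chromosome 6, from 27 to 28 Mb with 88 and from 26 to 27 Mb with 85. The arm window from 18 to 19 Mb followed with 80 sites.

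Density varied along the arm. The first 2 Mb held 71 and 106 sites, and the windows from 17 to 19 Mb held 63 and 80. Between them the counts varied, with 63 and 67 sites from 3 to 5 Mb and 64 from 10 to 11 Mb. The sparsest whole windows of the arm had 18 sites, from 9 to 10 Mb, and 17 sites, from 15 to 16 Mb. Even these held more sites than the genome's median window.

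Of the 993 Rbap46 sites on the arm, 992 were higher in Rbap46 than in input at an FDR under 0.05 in the authors' deposited table, and 1 was lower. The background for this call is that 37.6% of all sites the authors tested were above input. How many were tested on the arm is not known, so the count of members describes the table and not a rate of enrichment. The median difference of arm sites was 1.07, or 2.1-fold, with quartiles of 0.88 and 1.34. It was 1.05 over all other sites, with quartiles of 0.87 and 1.26, and 1.01 on the rest of chromosome 19. A pair of other stretches gave like values, 1.08 for the 674 sites of chromosome 16 before 35 Mb and 1.04 for the 432 sites of chromosome 9 from 130 Mb. The median of the arm thus stood within 0.1 on the log2 scale of each of these. Input levels reached 9.64 on that stretch of chromosome 9, against at most 7.52 on the arm.

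The excess on the arm was in the upper tail of the differences. Sites with an Rbap46 difference of 1.5 or more are called strong in what follows. There were 136 strong sites on the arm, or 13.7%, where the whole table has 9.93% and all other sites 9.80%. The share was 8.29% on the rest of chromosome 19, 11.4% on chromosome 16 before 35 Mb and 14.1% on chromosome 9 from 130 Mb. At a difference of 2 or more there were 13 sites, or 1.31%, beside 0.981% of the whole table. Past that limit few sites remained and the order varied. The share at 2.05 or more was 0.705% on the arm and 0.756% of all other sites, and at 2.5 or more 0.302% and 0.1085%. The arm, with 3.26% of all Rbap46 sites, carried 4.49% of the strong ones and 4.35% of those at 2 or more.

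Input levels were slightly higher on the arm, with a median of 5.93 against 5.84 for all other sites, and so were Rbap46 levels, with 7.00 against 6.85. Large differences were more frequent at low input in the whole table, so sites were also compared within 4 classes of input level, with limits at the quartiles of the whole table, 5.26, 5.84 and 6.34. In the lowest class 20.7% of 193 arm sites were strong, against 16% of other sites. The second class had 11.3% of 256 against 7.11%, the next 13.1% of 237 against 8.03%, and the highest 11.7% of 307 against 8.17%. The arm's share was above that of the other sites in each of the 4 classes. The input level is itself part of the difference, and only sites that passed the authors' limit are listed.

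**Figure D1:**
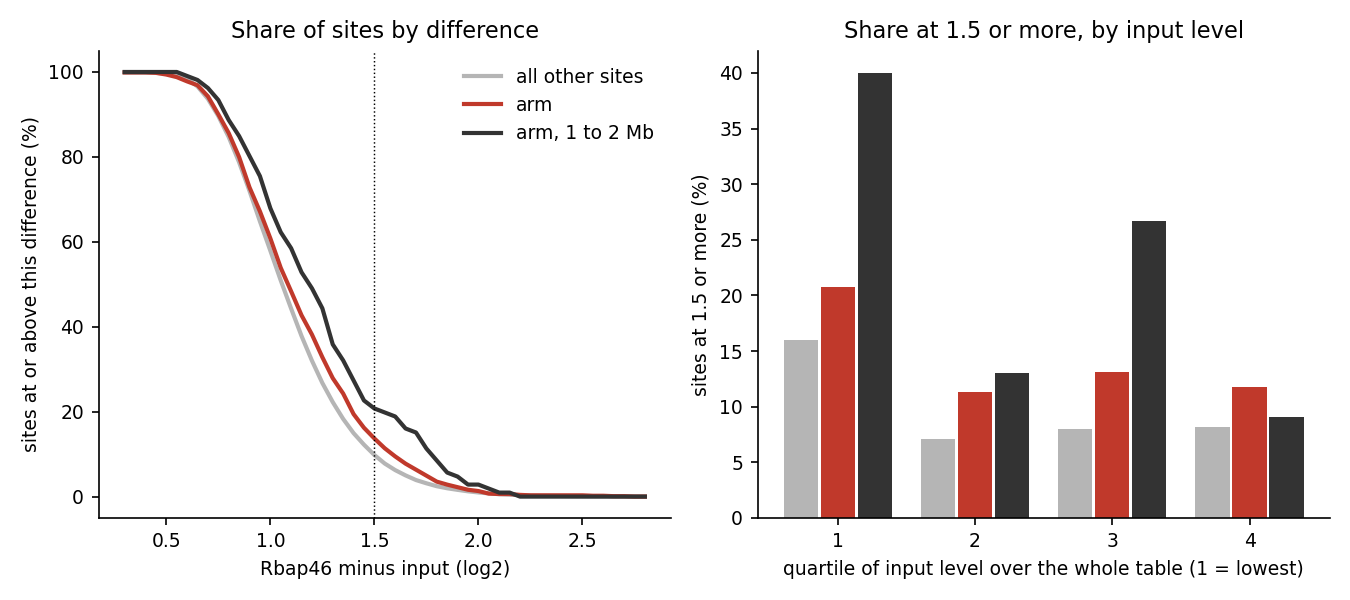
The left panel gives the percentage of sites (vertical axis) at or above each difference between Rbap46 and input (horizontal axis, log2) for the arm, its window from 1 to 2 Mb and all other sites, with a dotted line at 1.5, where the shares are 13.7%, 20.8% and 9.80%. The right panel gives the percentage of strong sites (vertical axis) for the same 3 sets within each quartile of input level (horizontal axis), and the arm's bar is above that of all other sites in all 4.

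Strong sites were unevenly spread over the windows. The 5 arm windows with at least 10 strong sites (0 to 1, 1 to 2, 10 to 11, 14 to 15 and 18 to 19 Mb) together held 69 of the 136, or 50.7%. These windows were picked for their strong counts, and they also held 379 of all 993 sites, or 38.2%. The window from 1 to 2 Mb had 22 of them among its 106 sites (20.8%), more than any other window of the genome, where the highest count was 14. That count of 14, among 62 sites (22.6%), belonged to chromosome 1 from 1 to 2 Mb. By share, the window of the arm from 1 to 2 Mb did not lead. Chromosome 9 from 140 to 141 Mb had 12 strong of 53 sites (22.6%), and the arm window from 9 to 10 Mb had 5 of 18 (27.8%). On the arm, 10 to 11 Mb had 13 of 64 (20.3%) and 18 to 19 Mb had 13 of 80 (16.3%). The window from 15 to 16 Mb had 0 of 17. Without the window from 1 to 2 Mb, 114 of the remaining 887 sites of the arm were strong, or 12.9%.

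**Figure D2:**
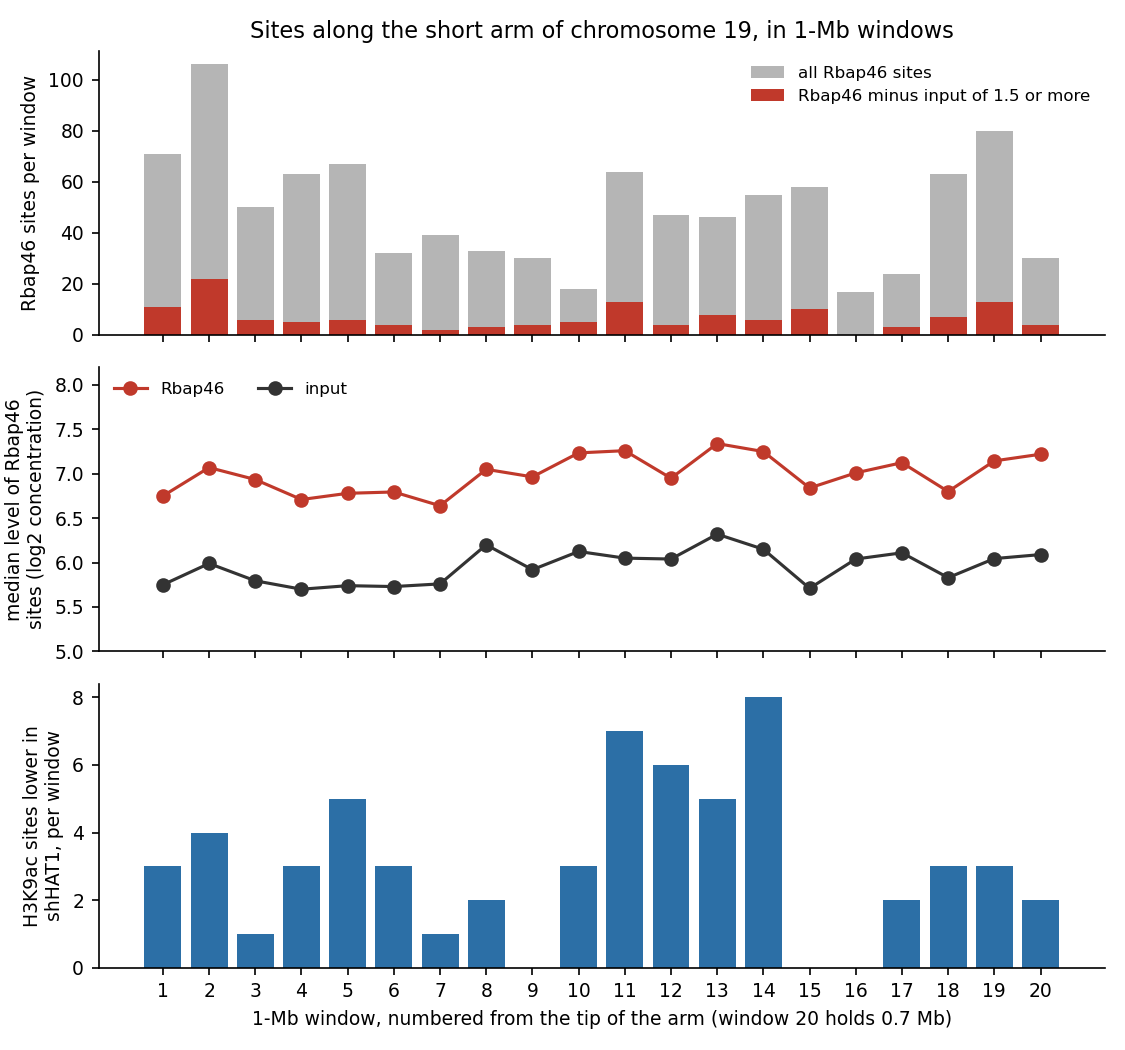
Sites in 1-Mb windows numbered from the tip of the short arm (horizontal axis, where window 2 is 1 to 2 Mb and window 20 holds 0.7 Mb): the top panel counts all Rbap46 sites (grey) and strong ones (red), the middle panel gives the median Rbap46 and input levels (log2 concentration) and the bottom panel counts H3K9ac sites lower in shHAT1. Window 2 has 106 Rbap46 sites, 22 of them strong, but 4 H3K9ac sites, and windows 9, 15 and 16 have no H3K9ac site.

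The rank of the 1 to 2 Mb window by number of strong sites depended little on how windows were drawn. Windows shifted by 500 kb put the fullest one from 0.5 to 1.5 Mb, with 21 strong sites, and 2-Mb windows put it from 0 to 2 Mb, with 33. Both ranked first in the genome. With neighbouring sites within 1 kb of each other counted once, the 1 to 2 Mb window had 21 and kept the first rank. With the limit raised to a difference of 2, it had 3 sites and another window held more.

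**Figure D3:**
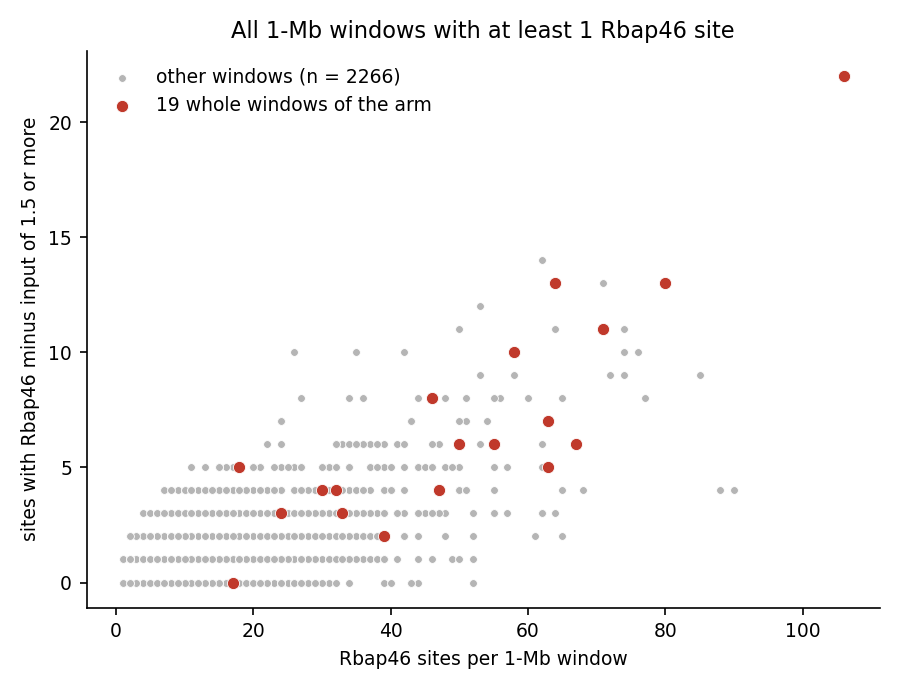
Each point is a 1-Mb window of the genome with at least 1 Rbap46 site, by its number of Rbap46 sites (horizontal axis) and its number of strong sites, those with Rbap46 minus input of 1.5 or more (vertical axis). The 19 whole windows of the short arm are red and all others grey, and the window from 1 to 2 Mb stands alone at the upper right with 106 sites, 22 of them strong.

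Within 1 to 2 Mb, the median difference was 1.19, or 2.27-fold, with a median Rbap46 level of 7.07 and a median input level of 5.99. Strong sites occurred in 9 of its 10 bins of 100 kb. The bins from 1.0 to 1.1, 1.2 to 1.3 and 1.5 to 1.6 Mb had 4 each, among 16, 19 and 9 sites, and the bin from 1.1 to 1.2 Mb had 0 of 5. The strong sites of the window stood a median of 28.3 kb from the next one, against 65.9 kb along the whole arm. They were not a single run of adjacent sites.

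The 22 strong sites of the window had differences from 1.51 to 2.15. Their input levels ran from 4.09 to 6.93 with a median of 5.81. Input was under 5 at 6 of them and 6 or more at 10. By input class the window had 8 strong of 20 sites in the lowest (40.0%), then 3 of 23 (13.0%), 8 of 30 (26.7%) and 3 of 33 (9.09%). Of the 22, 13 had an FDR under 1e-10 in the authors' deposited table, and the highest FDR there was 0.000332.

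The largest difference in the window was at the site from 1000143 to 1000643, with an Rbap46 level of 6.39, an input level of 4.24 and a difference of 2.15. Next came 1754601 to 1755101, with 6.14 against 4.09 and a difference of 2.05. Both combined a low input with an Rbap46 level below the window's median, and their FDRs in the authors' deposited table were 5.03e-08 and 2.24e-06. The site from 1864075 to 1864575 had a similar difference, 2.02, from much higher levels, 8.08 against 6.06, and the authors' deposited table put its FDR at 3.52e-22.

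Others of the kind with high levels were 1248078 to 1248578, at 7.93 against 6.0 (difference 1.93), and its neighbour 1248683 to 1249183, at 7.93 against 6.12 (1.81). These 2 sites are adjacent in the table. The site from 1512936 to 1513436 stood at 7.62 against 5.74 (1.88). Between both kinds was 1408217 to 1408717, at 7.11 against 5.17 (1.94). Its Rbap46 level was near the window's median of 7.07, and its input level fell in the lowest class. The remaining site among the 8 largest, 1568326 to 1568826, was again of low level, 6.34 against 4.50 (1.84). Differences of like size in this window thus came from sites of unlike level.

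The largest differences of the arm lay outside that window. The first was 13227362 to 13227862, where Rbap46 reached 9.13 against an input of 6.43, a difference of 2.70 or 6.5-fold. Its FDR in the authors' deposited table was 2.85e-57, and by p-value it ranked 11 among all 30475 sites. Of the sites nearby, 13228632 to 13229132 had a difference of 1.09 and 13213440 to 13213940 one of 1.52. The second of these also counts as strong.

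The next largest difference had much weaker support. At 18900557 to 18901057 the levels were 5.57 and 2.96, a difference of 2.61. That input level was the lowest of the arm, and the FDR in the authors' deposited table was 7.74e-06. It ranked 18 by difference but 8392 by p-value. Likewise 7627602 to 7628102 had 5.54 against 3.38 (difference 2.16), with the FDR at 0.000112 in the authors' deposited table. Over the arm, 33 of the 136 strong sites had an input under 5 and 60 had an input of 6 or more. Of the 136, 76 had an FDR under 1e-10 in the authors' deposited table.

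A pair of strong places lay between 10 and 11 Mb. At 10811896 to 10812396 the levels were 9.10 and 6.56, a difference of 2.54, and the authors' deposited table gave the FDR as 3.24e-56. At 10530454 to 10530954 they were 8.79 and 6.56, a difference of 2.23, with the FDR at 1.25e-38 in the authors' deposited table. This site had strong company: 10531414 to 10531914 had a difference of 1.98, 10514051 to 10514551 one of 1.77 and 10534817 to 10535317 one of 1.52. Between 12 and 13 Mb, 12893112 to 12893612 stood at 8.53 against 6.5 (2.03) and 12780106 to 12780606 at 8.56 against 6.65 (1.91). The site from 9694836 to 9695336 stood at 7.77 against 5.73 (2.04).

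At 1 site of the arm, input exceeded Rbap46. From 7670374 to 7670874 the Rbap46 level was 6.08 and the input level 7.27, a difference of -1.19, and its FDR was 2.45e-06 in the authors' deposited table. Its nearest listed neighbours were both above input, the low-input site 7627602 to 7628102 with a difference of 2.16 on one side and 7694359 to 7694859 with 1.37 on the other.

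H3K9ac sites that changed with the HAT1 hairpin were spread more thinly. The arm had 61, or 3.10 per Mb, with a median distance of 196 kb between neighbours, against 149 kb on the rest of chromosome 19 and 321 kb over all other sites. The 16 whole windows with a site had a median of 3, and the genome's 1003 windows with a site had a median of 2. The fullest were 13 to 14 Mb with 8 sites, which ranked 18 in the genome, then 10 to 11 Mb with 7 and 11 to 12 Mb with 6. The window from 1 to 2 Mb, first for Rbap46, had 4. The fullest windows of both tables were therefore not the same.

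The longest stretch without a changed H3K9ac site ran from 13961864 to 16190109, or 2.23 Mb. It held 79 Rbap46 sites, 10 of them strong. Sites of H3K9ac that did not pass the authors' limit are not listed, so this is a stretch without listed change and not one without acetylation.

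All 61 H3K9ac sites of the arm were lower in shHAT1 than in shControl cells, and 0 were higher. This is close to the background of the table, where 99.2% of sites were lower and 17 of the 2130 other sites were higher. Of all the sites the authors tested, 18.0% were lower at an FDR under 0.1, and the number tested on the arm is not known. The median difference on the arm was -0.74, a 1.67-fold lower level, with quartiles of -0.85 and -0.61. Over all other sites it was -0.78, or 1.72-fold lower, with quartiles of -0.93 and -0.65.

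Few of the drops on the arm were large. The differences ran from -1.41 to -0.48, and 4 of the 61 sites (6.56%) were at -1 or below, where the whole table has 18.3% and all other sites 18.7%. The share was 16.7% of 84 sites on the rest of chromosome 19 and 20% of 150 on chromosome 16 before 35 Mb. On chromosome 9 from 130 Mb it was 42.3% of 52, with a median of -0.97. An FDR under 0.05 in the authors' deposited table was reached by 18 arm sites (29.5%), against 36.3% of the whole table, and an FDR under 0.01 by 1.

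Arm sites started from a higher acetylation level, and among all other listed sites large drops were more frequent at lower levels. The median shControl level was 9.47 on the arm and 9.26 elsewhere, and the median shHAT1 levels were 8.77 and 8.49. In 4 classes of the shControl level, with limits at its quartiles of 8.74, 9.27 and 9.76, the share of other sites at -1 or below fell from 36.3% through 20.9% and 10.6% to 7.00%. On the arm 0 of 9 sites in the lowest class were at -1 or below, then 4 of 14 (28.6%), 0 of 21 and 0 of 17. Medians within classes were -0.83, -0.84, -0.65 and -0.69 on the arm and -0.91, -0.81, -0.72 and -0.71 elsewhere. The shControl level is itself part of the difference, and only sites that passed the authors' limit are listed. Whether the trend with level goes beyond this was not tested. The part of the higher shControl level in the smaller share of halved sites was not tested either.

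**Figure D4:**
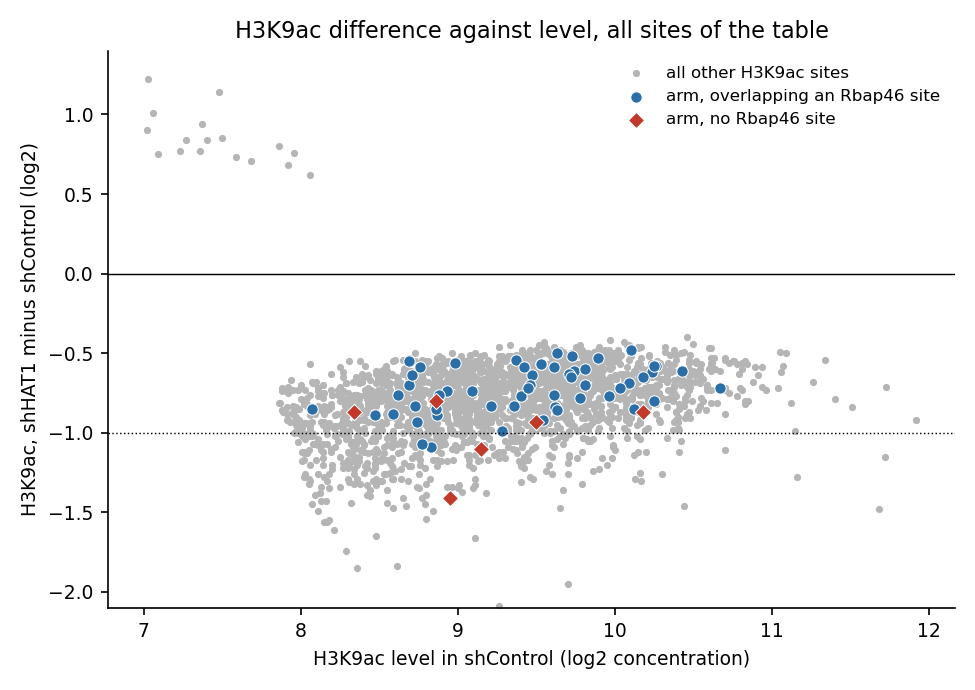
Each point is an H3K9ac site by its shControl level (horizontal axis, log2 concentration) and its difference between shHAT1 and shControl cells (vertical axis, log2), with grey for all other sites, blue circles for arm sites on an Rbap46 site, red diamonds for the 6 arm sites off one, and a dotted line at -1. The arm has 4 of 61 sites at -1 or below and 0 above the line at 0, and 3 other sites lie below the axis.

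The 4 sites with a halved level lay between 10 and 12 Mb. The largest drop was at 11202106 to 11202606, from 8.95 in shControl to 7.54 in shHAT1 cells, a difference of -1.41 or 2.66-fold lower. Its FDR in the authors' deposited table was 0.00536, the only one on the arm under 0.01. The site from 11199638 to 11200138 went from 8.77 to 7.70 (difference -1.07), and the authors' deposited table gave the FDR as 0.045. The others were 11491950 to 11492855, from 9.15 to 8.05 (-1.10), and 10679795 to 10680295, from 8.83 to 7.74 (-1.09). In the authors' deposited table their FDRs were 0.0563 and 0.0865, so they stood below the table's limit of 0.1 and not below 0.05.

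Both of the first sites belong to a cluster of 4 between 11199638 and 11202606, a stretch of 2.97 kb. The inner sites had higher levels and smaller drops. The site from 11200454 to 11200954 went from 10.67, the highest shControl level of the arm, to 9.95 (difference -0.72), and 11201132 to 11201632 went from 9.71 to 9.08 (-0.63). The drop was thus larger at both edges of the cluster than in its centre. Rbap46 was present under it, with a difference of 1.34 at 11200693 to 11201577 and of 1.17 at 11199777 to 11200277. The edge with the largest H3K9ac drop had its nearest Rbap46 site 528 bp away.

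Of the 61 sites, 14 stood in 6 clusters with gaps of up to 5 kb. One of them, from 1862360 to 1864623, lies in the 1 to 2 Mb window. Its wide site of 1378 bp, 1862360 to 1863737, went from 9.50 to 8.57 (difference -0.93), with the FDR at 0.0241 in the authors' deposited table. Its neighbour 1864123 to 1864623 went from 9.54 to 8.62 (-0.92), and the authors' deposited table gave the FDR as 0.0386. The second lies on the strong Rbap46 site that begins at 1864075.

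The remaining sites among the 10 largest drops had low to middling shControl levels. They were 16190109 to 16190609 (from 9.28 to 8.29), 17447535 to 17448035 (8.74 to 7.81), 11546329 to 11546829 (8.87 to 7.98) and 2900771 to 2901271 (8.47 to 7.58), with differences from -0.99 to -0.89. The sites with the smallest p-values included 3 outside the 10 largest drops. The site from 10946648 to 10947148 went from 10.18 to 9.53 (-0.65), with the FDR at 0.0204 in the authors' deposited table. The site from 10764158 to 10764658 went from 10.25 to 9.45 (-0.80), and the authors' deposited table gave the FDR as 0.0282. At 6424473 to 6424973 the level went from 8.86 to 8.06 (-0.80), with the FDR at 0.0237 in the authors' deposited table.

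Most changed H3K9ac sites of the arm lay on Rbap46 sites. An overlap of at least 1 bp with a site above input was present at 55 of 61 (90.2%), against 1613 of 2130 elsewhere (75.7%). The share was 73.8% on the rest of chromosome 19, 78.8% on chromosome 9 from 130 Mb and 90% on chromosome 16 before 35 Mb. Requiring an overlap of 50% of the H3K9ac site gave 70.5% on the arm and 53.5% elsewhere. Among the 18 arm sites with an FDR under 0.05 in the authors' deposited table, 14 overlapped (77.8%), against 75.7% elsewhere. Among these sites the shares of the arm and of the rest were close.

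The 6 sites without an overlap were mostly near misses, 145, 337, 528, 915, 1738 and 4532 bp from the nearest Rbap46 site. They had lower levels and larger drops than the 55 overlapping ones. Their median shControl level was 9.05 against 9.53, and their median difference -0.90 against -0.72. The same order was present elsewhere, with -0.88 at sites without and -0.75 at sites with an overlap. A difference of -1 or below was present at 2 of 6 arm sites without an overlap and 2 of 55 with one (3.64%), and at 32.9% and 14.1% of sites elsewhere.

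Read from the other list, 55 of the 993 Rbap46 sites of the arm (5.54%) overlapped a changed H3K9ac site, close to the 5.41% of other Rbap46 sites. On chromosome 16 before 35 Mb the share was 18.8%, and on chromosome 9 from 130 Mb it was 9.49%. The arm had 16.3 Rbap46 sites for each H3K9ac site, against 13.8 elsewhere and 4.49 on that stretch of chromosome 16. In the window from 1 to 2 Mb, 3 of 106 Rbap46 sites (2.83%) overlapped, and only 1 of its 22 strong sites did. Over the whole arm the overlap was thus close to that elsewhere, and in the window from 1 to 2 Mb it was lower, with no test of that difference.

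By size of the Rbap46 difference, the share of arm sites on a changed H3K9ac site was 3.87% of 388 sites under 1 and 6.20% of 468 sites from 1 to under 1.5. It was 5.69% of 123 sites from 1.5 to under 2, and 4 of 13 sites (30.8%) at 2 or more. Elsewhere these shares were 3.71%, 5.63%, 10.8% and 19.6%. Elsewhere the share rose from class to class, while on the arm the class from 1.5 to under 2 stood below the class before it. That class rests on 7 overlapping sites, and the difference was not tested.

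**Figure D5:**
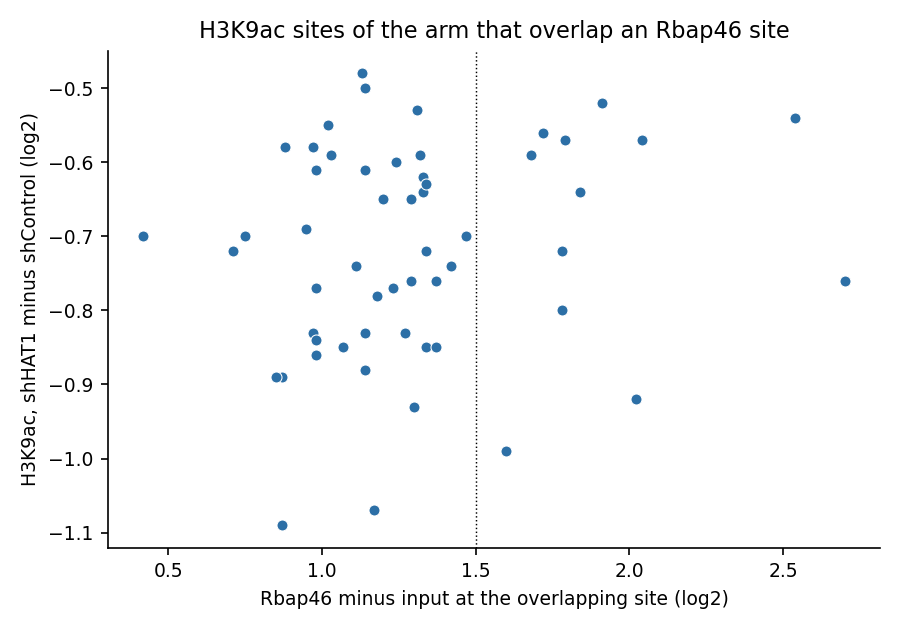
Each point is 1 of the 55 H3K9ac sites of the arm that overlap an Rbap46 site, by the Rbap46 minus input difference there (horizontal axis, log2) and the H3K9ac difference between shHAT1 and shControl cells (vertical axis, log2), with a dotted line at 1.5. The 12 sites to the right of the line have a median H3K9ac difference of -0.62, against -0.72 for the other 43.

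There were 12 H3K9ac sites on 11 strong Rbap46 sites, with a median difference of -0.62 against -0.72 for the 43 on weaker ones. Across the 55 overlapping sites Pearson's r between both differences was 0.174, and 0.0539 across the 1668 such sites of the whole table. Points share their libraries within each table, so these are descriptions only. The site with the arm's largest Rbap46 difference, 2.70, overlapped the H3K9ac site 13227172 to 13228003, which went from 9.61 to 8.85 (difference -0.76). The site with an Rbap46 difference of 2.54 overlapped 10811683 to 10812499, which went from 9.37 to 8.83 (-0.54). These 2 drops lie on either side of the arm's median of -0.74.

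The other H3K9ac sites on strong Rbap46 sites gave like values. Those from 9694827 to 9695327 and from 10216910 to 10217410 both went from 9.53 to 8.96 (-0.57), on Rbap46 differences of 2.04 and 1.79. The pair 10764158 to 10764658 and 10764897 to 10765397 shared 1 Rbap46 site with a difference of 1.78, and the second of them went from 10.03 to 9.31 (-0.72). The sites at 4670003 to 4670503 (8.98 to 8.42), 12780108 to 12780608 (9.73 to 9.21), 12807097 to 12807597 (8.71 to 8.07) and 19030406 to 19030906 (8.76 to 8.17) had differences from -0.64 to -0.52. The exceptions were 1864123 to 1864623 and 16190109 to 16190609, described above, at -0.92 and -0.99.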

How the data were processed

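ChIP-seq libraries were grouped by their labels: Rbap46, input, and H3K9ac in shControl and shHAT1 cells. Per the submitters' processing notes, reads were handled with cutadapt, Bowtie2, SAMtools, Picard, MACS2 and DiffBind in the hg19 build. The scaling and the test are not given in the sources used here. The authors deposited log2 concentrations as group means, with a p-value and an FDR per site. By the rank of those p-values, 80824 to 80834 Rbap46 and 12047 to 12049 H3K9ac sites had been tested, of which the deposited tables hold 37.7% and 18.2%.

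Sites of the arm were selected by start and compared with the other sites of each table, using Python 3.11.15, pandas 2.3.3, numpy 2.4.6, matplotlib 3.10.9 and scipy 1.17.1. Helper functions were checked on simulated data. Sites named were the 10 with the largest difference and the 5 with the smallest p-value per table, every site in the opposite direction, the 8 largest of 1 to 2 Mb, and H3K9ac sites on strong Rbap46 sites. Neighbours and clusters of these were chosen after their values were seen. The members, limits and lists were chosen with earlier results of these data known. No hg19 annotation was used here, so sites have no gene names and the planned gene lists were not used. Depth per library is unknown.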

Additional observations from a re-analysis of the deposited data

How the results depend on the processing

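No paired analysis was possible because each deposited value is a mean over the libraries of a group, and for the same reason no library could be left out. Of 28 other settings, 18 stayed within the tolerance (1.5 times for counts, 0.1 log2 for medians, the exact 95% binomial interval for shares), 10 moved and 0 reversed. Sites are not independent replicates, so the interval served as a tolerance only and measures no spread between libraries. It is wide where sites are few. With a log2 fold of at least 1, 604 arm sites were above input, not 992. Strong sites in the window from 1 Mb numbered 72 with a limit of 1, 3 with a limit of 2 and 11 in 500-kb windows, against 22. H3K9ac sites lower in shHAT1 numbered 18 at an FDR under 0.05, 1 under 0.01 and 4 with a halved level, against 61. The overlap of 90.2% became 70.5% with 50% of the site required, 96.7% within 1 kb (85.8% elsewhere) and 77.8% at an FDR under 0.05. Of 7 further settings added after seeing the data, 1 moved: at an FDR under 0.01, 17.5% of arm sites were strong, against 12.7% of other sites. The counts moved by construction, since their limits were stricter or wider, and so did the overlap with another required distance. The share of strong arm sites at an FDR under 0.01 also rose by construction. The highest FDR among the 136 strong arm sites was 0.00343, so that limit removed only weaker sites of the arm. For the overlap at an FDR under 0.05 the cause was not tested.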

Other observations

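The gene content of the arm was described from a RefSeq table of the GRCh38.p14 assembly, used for gene order and promoter sequence only and not joined to the sites. The table is not complete. ZNF14 is the first gene in that order of the zinc-finger cluster at the arm's limit. Ahead of it on chromosome 19 lay 477 of the 15812 coding genes of all chromosomes. Their density was 24.3 per Mb, against 5.65 per Mb over all chromosomes. The promoters of these genes, from 250 bases before to 50 bases after the start, had a median GC content of 65.3%, against 62.7% for all others, and a median of 24 CpG against 22. The motif GGGCGG, searched on both strands, was present in 73.4% of them and in 58.0% of the others. Over all 1185 genes of chromosome 19, the medians were 63% GC and 21 CpG, and 66.2% of promoters had the motif. Whether the composition of promoters ahead of ZNF14 stands in any relation to the site density of the arm was not tested.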
